A study of Mus musculus with 21 samples.

Results

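Expression of 7 germ cell specification genes, Prdm1, Prdm14, Tfap2c, Nanos3, Dppa3, Dnd1 and Kit, was followed in mouse formative stem cells, epiblast stem cells and early epiblasts. The genes were taken by symbol from the count table, where each of the 7 matched 1 of 33861 genes. All 7 are protein coding.

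RNA was sequenced from 21 samples. FS cells (formative stem cells in the labels, cultured in A3XR) came from 2 lines, FS1 at passages 10, 11 and 18 and FS2 at passages 12, 13 and 16. AF and AFX cells, both labelled EpiSCs and named for their media, carry E14, a mouse embryonic stem cell line, in their descriptions and were sampled at passages 14, 15 and 16. Every culture sample was a collection of 1000 cells. Epiblasts, the embryonic tissue that gives rise to the body and the germ line, were taken one embryo per sample at embryonic day 5.0 (embryos 1, 2 and 4), 5.5 (1, 2 and 3) and 6.0 (1, 2 and 3); the last stage is titled E6.0 and reads 6.5 in another label. The labels used here give no genotype or strain for any group and no treatment other than the culture medium. Line and medium change together between FS cells and the E14 groups, so these cannot be told apart. Passages of a line are not independent derivations, and p-values among cultures measure the spread between passages. Where FS is 1 group, that spread also holds the difference between its 2 lines.

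In the mouse, primordial germ cells arise from a few epiblast cells in response to BMP signals from neighbouring extraembryonic tissue, with WNT signalling making the epiblast competent. Prdm1 (BLIMP1), Prdm14 and Tfap2c (AP-2 gamma) encode the transcription factors that set up the germ cell programme. Nanos3 and Dnd1 encode RNA-binding proteins that protect the new germ cells, Dppa3 (STELLA) encodes a chromatin protein of germ cells, oocytes and naive pluripotent cells, and Kit encodes the receptor for the survival factor KITL. Several of these genes are also active outside the germ line: Prdm1 in visceral endoderm, Tfap2c in trophoblast and Kit in many progenitor cells.

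The sequences just upstream of Prdm1 and Kit are shown because the promoter table held them and both genes differed between FS cells and the other cultures. They come from RefSeq on GRCm38.p6, where 3 of the 7 genes, Prdm1, Nanos3 and Kit, were matched. The Prdm1 stretch is chr10:44458749-44458998 on the minus strand, 250 bases before the RefSeq start, and lies within an intron of a longer GENCODE M21 transcript of the gene. The Kit stretch is chr5:75574737-75574915 on the plus strand, the 179 bases of the same window that precede every annotated Kit exon. Capitals mark matches to the motifs searched.
Prdm1: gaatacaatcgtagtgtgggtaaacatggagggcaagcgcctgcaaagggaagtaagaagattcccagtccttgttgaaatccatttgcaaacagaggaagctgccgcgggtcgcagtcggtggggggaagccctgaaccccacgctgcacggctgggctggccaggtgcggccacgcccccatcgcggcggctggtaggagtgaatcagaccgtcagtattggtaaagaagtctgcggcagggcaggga
Kit: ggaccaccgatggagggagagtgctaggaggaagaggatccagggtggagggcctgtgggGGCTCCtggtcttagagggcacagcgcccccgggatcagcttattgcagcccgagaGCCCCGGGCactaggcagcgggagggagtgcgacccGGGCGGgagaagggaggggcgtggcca
The 250 bases before the start were searched on both strands for 8 motifs. In the Kit window 3 matched once each and without overlap: the TFAP2 motif GCCNNNGGC from base -134 relative to the start, which 13.7% of 32851 promoters hold, the SMAD1/5 motif GGNGCC from -190 (49.7% of promoters) and the GC box GGGCGG from -98 (32.7%). The Prdm1 window held none of these letters. Neither window held the PRDM1 motif GTGAAAG (3.57% of promoters), the PRDM14 motif GGTCTCTAA (0.24%), the TCF/LEF motif CTTTGAT (3.21%), the octamer ATGCAAAT (1.6%) or the TATA box TATAAA (12.4%). These matches describe letters only and do not show binding.

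Total counts per sample ran from 5827093 to 15916800. Levels are given as CPM, counts scaled to a common library size with TMM factors, and 3 counts, taken as the limit that a count of 0 allows, were 0.171 to 0.589 CPM depending on the sample. Intervals of this kind cover counting error only. The summed CPM of 9 epiblast markers was 2187 to 3218 in FS, 1384 to 2027 in AF and 2145 to 2605 in AFX. It was 4622 to 4880 at E5.0, 5902 to 6399 at E5.5 and 6351 to 8025 at E6.0. Dnmt3b carried much of these sums, with means of 1546 CPM in FS, 785 in AF, 1233 in AFX and 5190 at E6.0. Of the 9, 7 were lower in FS than at E6.0 and 0 higher, where 18.9% of all genes were lower. Mean Fgf5 was higher in AF (136 CPM) and AFX (113) than at any stage (68.8 to 98.6), and Sox2 was highest in AFX (80.7). The tissue labels carried other markers too. The sum over 12 visceral endoderm markers was 8.14 to 19.6 in FS, 104 to 199 in AF, 23.5 to 56.0 in AFX, 326 to 922 at E5.0, 46.8 to 87.0 at E5.5 and 31.9 to 43.5 at E6.0. Afp, Ttr, Apob and Hnf4a were at 0 in every FS sample, Afp in every AF sample, and Afp and Hnf4a in every AFX sample. The AF sum rested on Foxa2 (mean 62.9 CPM), Sox17 (31.1), Gata6 (17.96), Dab2 (16.4) and Gata4 (10.1), which other tissues share. Cubn, at 376 CPM in E5.0 epiblasts, was at 0.366 CPM in AF, Apob at 1.16, Apoa1 at 0.969, Hnf4a at 0.493, Amn at 0.0911 and Ttr at 0.0411 CPM. Of the 5 genes of this list tested among cultures, 5 were lower in FS than in AF (10.6% of all genes) and 3 lower in AFX than in AF (4.42%). Sox17, Gata6 and Gata4, at FS means of 0.225, 0.131 and 0.196 CPM, passed the filter through AF. Their lower calls were thus largely set by the filter, and these counts describe the list only.

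Prdm1 (ENSMUSG00000038151; GRCm38 chr10:44437177-44528501, minus strand) was close to absent in FS cells and highest in AF cells. FS1 had 1 count in each of its 3 samples and FS2 had 0 in each. AF samples were at 14.3, 12.2 and 22.1 CPM at passages 14, 15 and 16, and AFX samples at 1.07, 0.500 and 7.73 CPM. No FS sample overlapped any AF or AFX sample, and the AFX sample of passage 16 stood well above the other two. Prdm1 was at least 59.8-fold lower in FS than in AF (edgeR quasi-likelihood test, Benjamini-Hochberg adjusted p = 2.98e-05) and at least 11.5-fold lower than in AFX (adjusted p = 0.00136). These are bounds because every FS sample had at most 3 counts. The bound against AFX rests on passage 16: without it the bound was 2.91-fold and the call remained (edgeR adjusted p = 0.00379). Prdm1 passed the filter of this fit through AF, and with FS and AFX alone it failed the filter and was not tested.

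Between the E14 cultures the Prdm1 call depended on the fit. Its mean was 3.10 ± 4.02 CPM in AFX (SD, n = 3) and 16.2 ± 5.20 CPM in AF (SD, n = 3), a log2 difference of -2.36 ± 0.70 (SE, edgeR adjusted p = 0.0559) that missed the threshold among the cultures, although no AFX sample reached the lowest AF sample. It passed in the fit of all 21 samples (-2.36, edgeR adjusted p = 0.0444) and with passage number as a block (-2.96, adjusted p = 0.0224). In 10 of 13 alternatives it was not called, with adjusted p up to 0.147, among them the DESeq2 Wald test (0.121), no filter (0.142) and the 2 groups alone (0.0976). The remaining alternative, leaving out the AFX sample of passage 16, gave -4.27 with an adjusted p of 0.000856. The same passage had the highest sum over the visceral endoderm list in both media, 199 CPM in AF and 56.0 CPM in AFX.

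In the embryos Prdm1 was low and uneven. E5.0 epiblasts had 5.34, 9.03 and 1.32 CPM in embryos 1, 2 and 4, E5.5 epiblasts 2.48, 1.15 and 2.24 CPM, and E6.0 epiblasts 2.23, 4.33 and 2.98 CPM. All 3 stages overlapped, and none of the 3 stage comparisons passed (edgeR adjusted p from 0.215 to 0.631). The order of the E5.0 embryos was that of their visceral endoderm sums, 747, 922 and 326 CPM. The sums did not follow the Prdm1 order at E5.5 (87.0, 64.2 and 46.8 CPM) or at E6.0 (39.7, 43.5 and 31.9 CPM). The part of these markers in the Prdm1 level was not tested. FS cells were at least 19.3-fold lower than E5.0, 7.23-fold lower than E5.5 and 11.7-fold lower than E6.0 epiblasts (edgeR adjusted p = 2.05e-06, 0.000107 and 2.26e-05), with a bound of 12.3-fold without E5.0 embryo 2. AF cells exceeded E6.0 epiblasts by 2.33 ± 0.71 (log2, SE; edgeR adjusted p = 0.0133), a call lost without E6.0 embryo 1 (adjusted p = 0.0566) or 3 (0.0509). AFX cells did not differ detectably from them (-0.03, edgeR adjusted p = 0.982), and without the AFX sample of passage 16 the difference was -1.94 and passed (edgeR adjusted p = 0.0404).

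**Figure D1:**
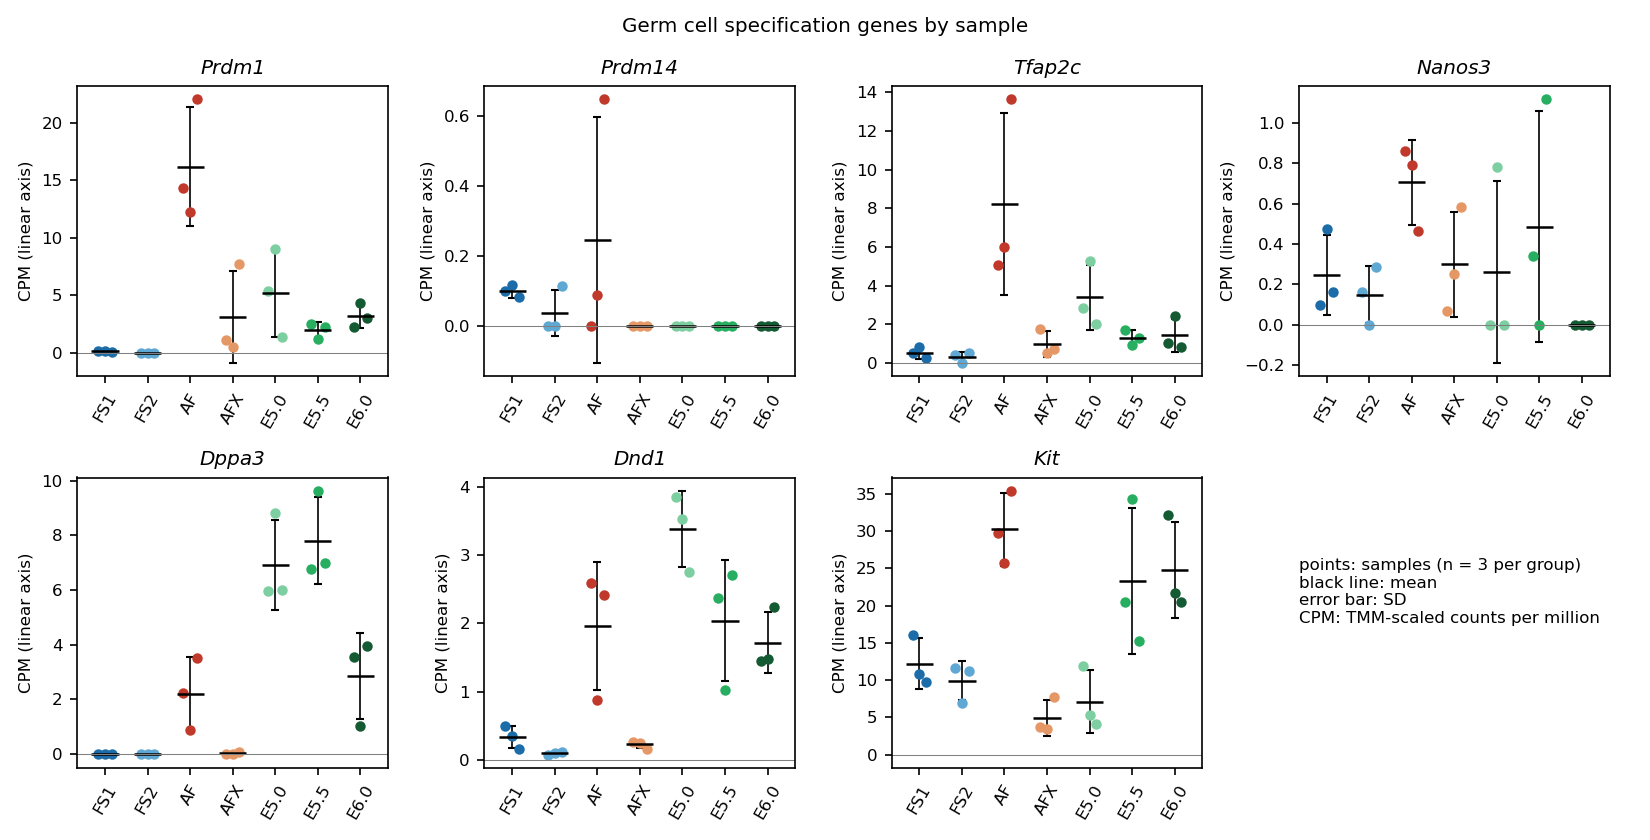
CPM of each gene (linear vertical axis, a separate scale per gene) in the 7 groups, with 1 point per sample, the mean as a line and the SD as an error bar (n = 3 per group). AF holds the highest mean of Prdm1, Tfap2c and Kit, whereas Dppa3 and Dnd1 are highest in the embryos.

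Tfap2c (ENSMUSG00000028640; GRCm38 chr2:172549593-172558622, plus strand) had the same leading group. FS1 samples were at 0.496, 0.826 and 0.244 CPM and FS2 samples at 0.402, 0 and 0.512 CPM, from at most 9 counts. AF samples were at 5.06, 5.98 and 13.6 CPM, and AFX samples at 1.74, 0.500 and 0.748 CPM. AF lay apart from both other cultures, and FS and AFX overlapped. Tfap2c was lower in FS than in AF by a log2 difference of -4.30 ± 0.54 (SE, edgeR adjusted p = 8.36e-05). It was also lower in AFX than in AF, by -2.98 ± 0.64 (edgeR adjusted p = 0.01), a call that was lost without the AF sample of passage 16 (-2.42, adjusted p = 0.0535). FS and AFX were not separated (-1.32 ± 0.61, edgeR adjusted p = 0.211).

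E5.0 epiblasts had 2.86, 5.30 and 2.04 CPM of Tfap2c, E5.5 epiblasts 1.69, 0.917 and 1.31 CPM, and E6.0 epiblasts 1.05, 2.42 and 0.852 CPM. The E5.0 embryos lay above the E5.5 embryos without overlap, yet no stage comparison passed (edgeR adjusted p from 0.226 to 0.945). Against the 3 stages, from youngest to oldest, FS cells were lower by -2.99 ± 0.58, -1.64 ± 0.61 and -1.80 ± 0.60 (log2, SE; edgeR adjusted p = 0.000179, 0.0325 and 0.0203). The calls against E5.5 and E6.0 were lost with FS1 alone (edgeR adjusted p = 0.132 and 0.0986). The call against E5.5 was also lost without FS1 passage 18 (adjusted p = 0.059), E5.5 embryo 1 (0.117) or E5.5 embryo 3 (0.0735), and the call against E6.0 without embryo 2 (-1.18, adjusted p = 0.227). AF cells were higher than E6.0 epiblasts by 2.48 ± 0.65 (edgeR adjusted p = 0.00516). Leaving out 1 sample at a time, this difference ranged from 1.91 to 3.10, the highest without E6.0 embryo 2. Markers of extraembryonic ectoderm or trophoblast, where Tfap2c is also active, summed over 12 genes to 35.8 to 61.7 CPM in FS, 99.5 to 180.6 CPM in AF and 48.8 to 110.0 CPM in AFX. Eomes, also a gene of the early primitive streak, carried most of the AF sum (mean 84.6 CPM). Of 9 list genes tested, 5 were lower in FS than in AF and 0 higher, where 10.6% of all genes were lower: Eomes, Tead4 (1.92 and 10.9 CPM), Krt7 (0.652 and 9.52), Gata3 (0.264 and 6.59) and Rhox5 (0.295 and 2.103). In AFX against AF 2 of 9 were lower, Gata3 and Tead4, and 0 higher, where 4.42% of all genes were lower. Elf5 was at 0 in every AF and AFX sample and at a mean of 0.00948 CPM in FS, and Cdx2 was at 1.45 CPM in AF and 0 in every AFX sample. In AF the highest such sum and the highest Tfap2c were both at passage 16, whereas in AFX passage 16 had the highest sum (110.0 CPM) and passage 14 the lowest (48.8 CPM) but the highest Tfap2c. In the embryos the sums were in the order of the Tfap2c levels at E5.0 (132, 176 and 64.5 CPM) and at E6.0 (106, 202 and 74.6 CPM), but at E5.5 (53.5, 46.2 and 66.6 CPM) the orders differed. E6.0 embryo 2, on which the call of FS against E6.0 depended, had the highest sum of the 21 samples. Eomes carried most of the E6.0 sums too, at a mean of 118 CPM and up to 187 CPM. Elf5, Cdx2 and Hand1 had means of 0.338, 0.308 and 0.439 CPM at E6.0. The part of these cells in the results was not tested.

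**Figure D2:**
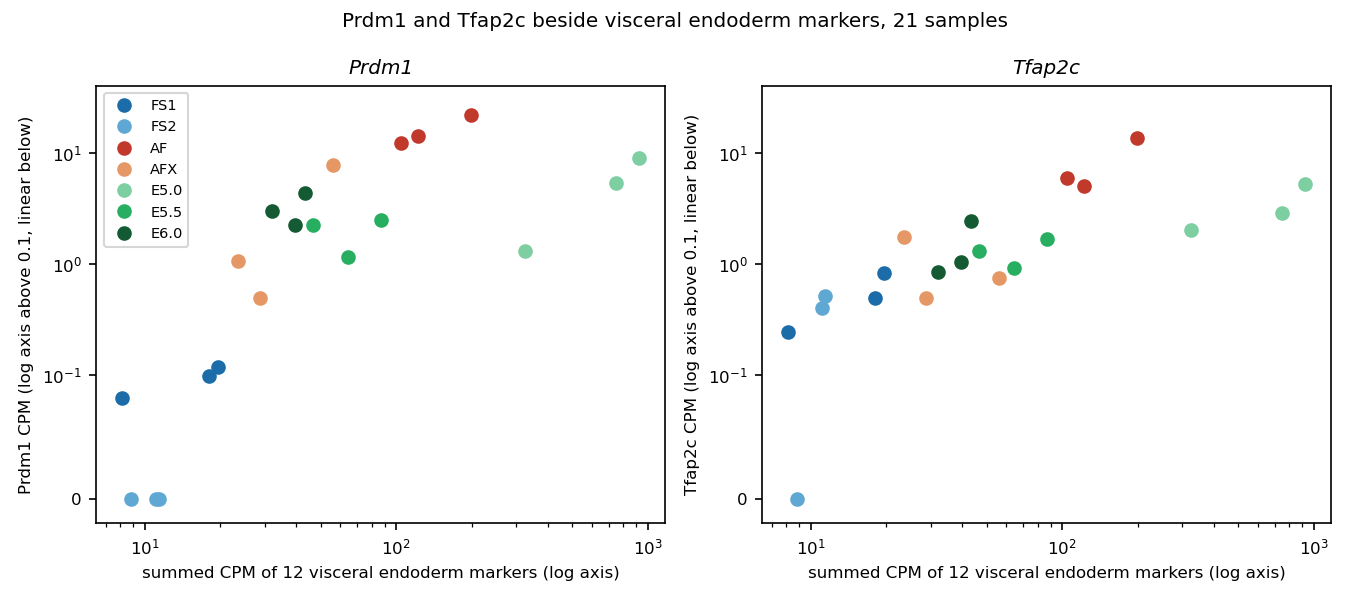
CPM of Prdm1 (left) and Tfap2c (right; vertical axes logarithmic above 0.1 and linear below) against the summed CPM of 12 visceral endoderm markers (logarithmic axis), 1 point per sample. The AF samples, with marker sums of 104 to 199 CPM, hold the highest Prdm1 levels, and the E5.0 embryos, at 326 to 922 CPM, lie below them.

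Prdm14 (ENSMUSG00000042414; GRCm38 chr1:13113457-13127163, minus strand) was at or near the detection limit everywhere. All 9 epiblasts and all 3 AFX samples had 0 counts. FS1 had 1 count per sample, FS2 had 0, 0 and 2, and AF had 0, 1 and 7 at passages 14, 15 and 16. Thus the AF sample of passage 16 alone exceeded 3 counts. Prdm14 passed the filter on low counts in no fit, so its difference was not detectable at this depth.

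Nanos3 (ENSMUSG00000056155; GRCm38 chr8:84173731-84185217, minus strand) was also scarce. AF samples had 7, 9 and 5 counts (0.863, 0.791 and 0.464 CPM), the only group with every sample above 3 counts. FS1 had 1, 4 and 2 counts, FS2 had 2, 0 and 5, and AFX had 1, 2 and 7. The embryos had 0, 4 and 0 counts at E5.0, 3, 0 and 12 at E5.5, and 0 in each of 3 embryos at E6.0. All groups overlapped at least 1 of the cultures, but AF and E6.0 did not overlap each other, and AF was at least 2.18-fold higher. Nanos3 passed the filter in no fit. With no filter it was called between AF and E6.0 (edgeR adjusted p = 0.0173), which made 3 genes of the set called there.

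Dnd1 (ENSMUSG00000044595; GRCm38 chr18:36763671-36766214, minus strand) was detected in AF cells and in every embryo, highest at E5.0, and was about the limit of detection in FS and AFX cells. FS1 samples had 5, 3 and 2 counts, FS2 samples 1, 1 and 2, and AFX samples 4, 2 and 2. AF samples were at 2.59, 0.879 and 2.41 CPM. AF lay above every FS and AFX sample. Dnd1 did not pass the filter in the fit of the cultures. In a fit of all 21 samples, added after these values were seen, it was lower in FS than in AF by -3.15 ± 0.55 (log2, SE; edgeR adjusted p = 3e-04) and lower in AFX than in AF by -3.03 ± 0.69 (edgeR adjusted p = 0.00842). A Dnd1 exon overlaps an exon of Wdr55 on the opposite strand. Without a stated strand in the counting, reads of the 2 genes within the shared stretch cannot be told apart. The part of that stretch in the Dnd1 counts was not tested.

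Epiblasts had Dnd1 at 3.85, 3.53 and 2.76 CPM at E5.0, 2.37, 1.03 and 2.70 CPM at E5.5 and 1.44, 1.47 and 2.24 CPM at E6.0. The E5.0 embryos lay above all other embryos, but no stage comparison passed (edgeR adjusted p from 0.256 to 0.877). FS cells were lower than the 3 stages by -3.94 ± 0.55, -3.22 ± 0.55 and -2.97 ± 0.56 (log2, SE; edgeR adjusted p = 3.45e-06, 6.66e-05 and 0.000238). AFX cells were lower than E6.0 epiblasts by -2.85 ± 0.69 (edgeR adjusted p = 0.00333), and AF cells did not differ detectably from them (0.18, edgeR adjusted p = 0.842).

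Dppa3 (ENSMUSG00000046323; GRCm38 chr6:122626410-122630272, plus strand) was not detected in any FS sample. All 6 FS samples had 0 counts, which allows up to 0.354 CPM in the shallowest of them. AFX samples had 0, 0 and 1 counts, and AF samples 18, 10 and 38 counts (2.22, 0.879 and 3.53 CPM). AF therefore lay apart from both other cultures. Dppa3 was at least 8.16-fold lower in FS and at least 8.02-fold lower in AFX than in AF, with edgeR adjusted p = 8.47e-06 and 0.000945 in the fit of all 21 samples, since the gene failed the filter among the cultures alone.

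Every epiblast contained Dppa3 transcripts. E5.0 embryos had 5.96, 8.83 and 5.995 CPM, E5.5 embryos 6.78, 9.63 and 6.99 CPM, and E6.0 embryos 3.55, 1.04 and 3.94 CPM. The E6.0 embryos lay below all embryos of the earlier stages. E6.0 was lower than E5.5 by -1.47 ± 0.47 (log2, SE; edgeR adjusted p = 0.098) and lower than E5.0 by -1.31 ± 0.47 (edgeR adjusted p = 0.0626), so neither difference passed. The DESeq2 Wald test did call both (adjusted p = 0.0414 and 0.0359). FS cells were at least 25.6-fold lower than E5.0, 28.8-fold lower than E5.5 and 10.5-fold lower than E6.0 epiblasts (edgeR adjusted p = 4.17e-08, 5.42e-08 and 1.42e-06). AFX cells were at least 10.3-fold lower than E6.0 epiblasts (edgeR adjusted p = 8.98e-05), and AF cells did not differ detectably from them (-0.35, edgeR adjusted p = 0.674). In bulk samples such as these, fewer cells with a transcript and less transcript per cell cannot be told apart. Dppa3 is also a gene of naive pluripotency, and the summed CPM of 10 other naive markers was 25.6 to 44.7 in FS, 174 to 217 in AF, 26.0 to 72.1 in AFX, 250 to 404 at E5.0, 102 to 221 at E5.5 and 96.2 to 146 at E6.0. Tdgf1, a NODAL coreceptor that the epiblast also expresses, carried much of these sums, with means of 239 CPM at E5.0, 86.4 CPM in AF and 51.1 CPM at E6.0, and Nanog added 51.3 CPM in AF and 36.7 CPM at E6.0. Zfp42 had means of 18.2 CPM at E5.0, 3.099 CPM in AF and 0.0795 CPM in FS. Of 8 naive markers tested, 8 were lower in FS than in AF (10.6% of all genes) and 4 were lower in AFX than in AF (4.42%). Markers that pass the filter through AF alone, such as Zfp42, had to be lower in FS, so these counts describe the list only.

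Kit (ENSMUSG00000005672, GRCm38 chr5:75574916-75656722, plus strand) had the highest total counts of the 7 genes in each group and was detected in every sample. In E5.0 embryos 2 and 4 it had 27 and 34 counts, below Dppa3 at 45 and 50. FS1 samples were at 16.1, 10.9 and 9.69 CPM and FS2 samples at 11.6, 6.96 and 11.3 CPM. AF samples were at 29.7, 25.7 and 35.4 CPM, and AFX samples at 3.69, 3.37 and 7.73 CPM. AF lay above all other cultures, and AFX lay below FS except that its passage 16 sample exceeded the lowest FS2 sample. Kit was lower in FS than in AF by -1.46 ± 0.25 (log2, SE; edgeR adjusted p = 0.000888) and lower in AFX than in AF by -2.61 ± 0.32 (edgeR adjusted p = 0.000365). It was the only one of the genes tested among cultures that was higher in FS than in AFX, by 1.15 ± 0.29 (edgeR adjusted p = 0.0208). That last call was lost without the AFX sample of passage 14 (adjusted p = 0.0935) or 15 (0.113), and with FS2 alone (0.063).

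Kit increased from E5.0 to the later epiblasts. E5.0 embryos had 11.9, 5.30 and 4.08 CPM, E5.5 embryos 20.4, 34.3 and 15.2 CPM, and E6.0 embryos 32.2, 21.6 and 20.4 CPM. No E5.0 embryo reached a later one, whereas E5.5 and E6.0 overlapped. Kit was higher at E6.0 than at E5.0 by 1.77 ± 0.41 (log2, SE, edgeR adjusted p = 0.00815). All 12 alternative settings kept this call, with differences from 1.49 to 2.41, the highest without E5.0 embryo 1. It was higher at E5.5 than at E5.0 by 1.69 ± 0.41 (edgeR adjusted p = 0.0279), a call lost in 6 of 12 alternatives: without E5.0 embryo 2 (adjusted p = 0.0736) or 4 (0.0745), without E5.5 embryo 1 (0.0653) or 2 (0.113), with the 2 stages alone (0.062) and with embryo number as a block (0.0652). E6.0 and E5.5 were not separated (0.08, edgeR adjusted p = 0.945). The marker sums changed over these stages too. Visceral endoderm markers summed to 326 to 922 CPM at E5.0 and 31.9 to 43.5 CPM at E6.0, and epiblast markers to 4622 to 4880 and 6351 to 8025 CPM. The part of this change in the Kit levels was not tested. FS cells were lower than E5.5 epiblasts by -1.07 ± 0.31 and lower than E6.0 epiblasts by -1.16 ± 0.31 (edgeR adjusted p = 0.00739 and 0.00505). The call against E5.5 was lost without E5.5 embryo 2 (-0.72, adjusted p = 0.101) and with FS1 alone (0.0624). Against E5.0 they did not pass (0.63 ± 0.34, edgeR adjusted p = 0.129), but were higher without embryo 1 of that stage (1.27, adjusted p = 0.00817). AFX cells were lower than E6.0 epiblasts by -2.31 ± 0.39 (edgeR adjusted p = 0.000126).

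Kitl, which encodes the ligand of KIT, differed between FS and both E14 cultures. Its mean was 1.88 ± 1.06 CPM in FS (SD, n = 6), 8.33 ± 1.84 CPM in AF (SD, n = 3) and 7.95 ± 4.26 CPM in AFX (SD, n = 3). FS was lower than AF by -2.19 ± 0.44 (log2, SE; edgeR adjusted p = 0.00281) and lower than AFX by -2.12 ± 0.44 (edgeR adjusted p = 0.0072). AF and AFX were not separated for the ligand (-0.07, edgeR adjusted p = 0.888). The sum of feeder fibroblast markers was highest in AF. Of the 9 listed 8 were in the table, and their sum was 239 to 287 CPM in AF, 33.5 to 67.6 CPM in FS, 41.9 to 65.8 CPM in AFX and 12.8 to 28.4 CPM in the embryos. None of the 8 was at 0 throughout AF or AFX, and Lum was at 0 in every FS sample. The AF sum was carried by Col1a1 (mean 92.6 CPM), Col3a1 (78.3) and Col1a2 (57.3). Thy1 went the other way, at 2.14 CPM in AF, 5.497 CPM in FS and 10.7 CPM in AFX, and was called higher in AFX than in AF (2.29 ± 0.55, edgeR adjusted p = 0.0181). Of 7 listed genes tested, 5 were lower in FS than in AF and 0 higher, beside 10.6% of all genes lower, and 6 were lower in AFX than in AF and 1, Thy1, higher, beside 4.42% of all genes lower. The part of these cells in the differences between AF and the other cultures was not tested.

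**Figure D3:**
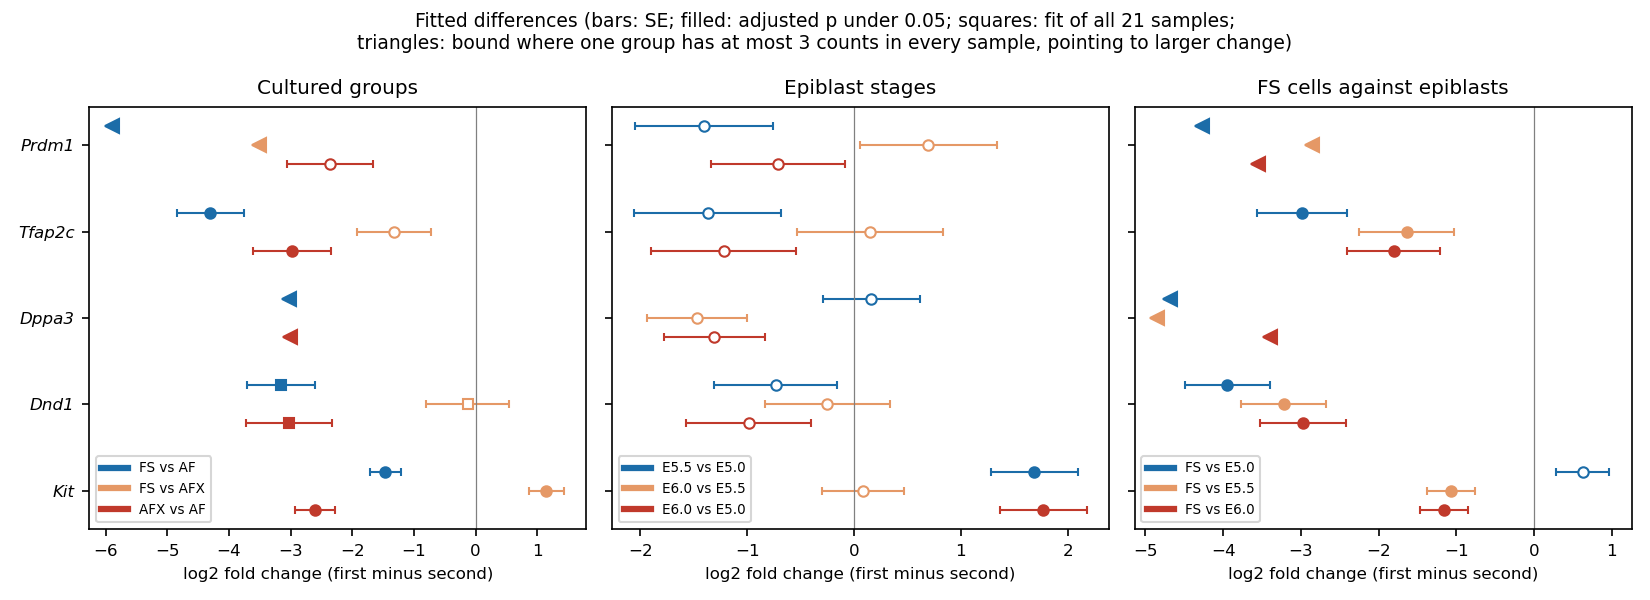
Log2 fold changes (horizontal axis, first group minus second) of 5 genes among cultured groups, among epiblast stages and between FS cells and epiblasts, with SE bars and filled symbols for an adjusted p under 0.05. Squares come from the fit of all 21 samples and triangles are lower bounds on the size of a change, as for Dppa3 in FS cells, which had 0 counts in all 6 samples.

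Counted over the set, Prdm1, Tfap2c and Kit passed the filter among cultures, and all 3 were lower in FS than in AF, a direction called for 10.6% of 16052 genes tested (19.5% in either direction). For AFX against AF 2 were called, both lower, where 4.42% of genes were lower and 8.73% changed either way. For FS against AFX 2 were called, Prdm1 lower and Kit higher, against 8.70% of genes in either direction. With all 21 samples fitted, 5 genes were lower in FS than in AF (8.88% of 16614 genes) and 5 were lower in AFX than in AF (3.62%). A gene that passes the filter through its high group alone had to differ, so these counts describe the set and do not support more. The same limit holds for the counts over the other gene lists. FS2 and FS1 differed in none of the 3 genes tested (edgeR; 0 at an unadjusted p under 0.05, and 0 by DESeq2), where 3.85% of genes were called. Kit was at 9.93 ± 2.58 CPM in FS2 and 12.2 ± 3.40 CPM in FS1 (SD, n = 3 each), a log2 difference of -0.31 ± 0.30 (edgeR adjusted p = 0.659).

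Among epiblasts 5 genes passed the filter. Kit alone was called between E5.5 and E5.0 and between E6.0 and E5.0, higher at the later stage, as were 3.07% and 10.2% of 14228 genes (21.8% changed in either direction between E6.0 and E5.0). Between E6.0 and E5.5 0 genes of the set were called by edgeR, against 4.43% of all genes; 1, Dppa3, had an unadjusted p under 0.05, and DESeq2 called it. FS cells were lower for 4 of 5 genes tested against E5.0 (24.8% of all genes), 5 of 5 against E5.5 (20.8%) and 5 of 5 against E6.0 (18.9%). These comparisons share the FS samples. Prdm1, Tfap2c, Dppa3 and Dnd1 had at most 9 counts in any FS sample and passed the filter through other groups. Their lower calls in FS were thus largely set by the filter, and the counts describe the set only. AF cells were higher than E6.0 epiblasts for 2 of 5, Prdm1 and Tfap2c (18.1% of genes), and AFX cells were lower for 3 of 5, Dppa3, Dnd1 and Kit (15.8%). Dppa3 and Dnd1, with at most 4 counts in any AFX sample, likewise passed the filter through other groups.

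Compared per kilobase of annotated exon, the order of the genes depended on the group. In AF cells Kit led with 3.40 CPM per kilobase, followed by Prdm1 at 2.90, Dppa3 at 2.48 and Tfap2c at 2.24. In E5.5 epiblasts Dppa3 led with 8.74 ± 1.78 CPM per kilobase (SD, n = 3), and Kit was at 2.62. Kit was the leading gene in FS1 at 1.37 and in FS2 at 1.11 CPM per kilobase.

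**Figure D4:**
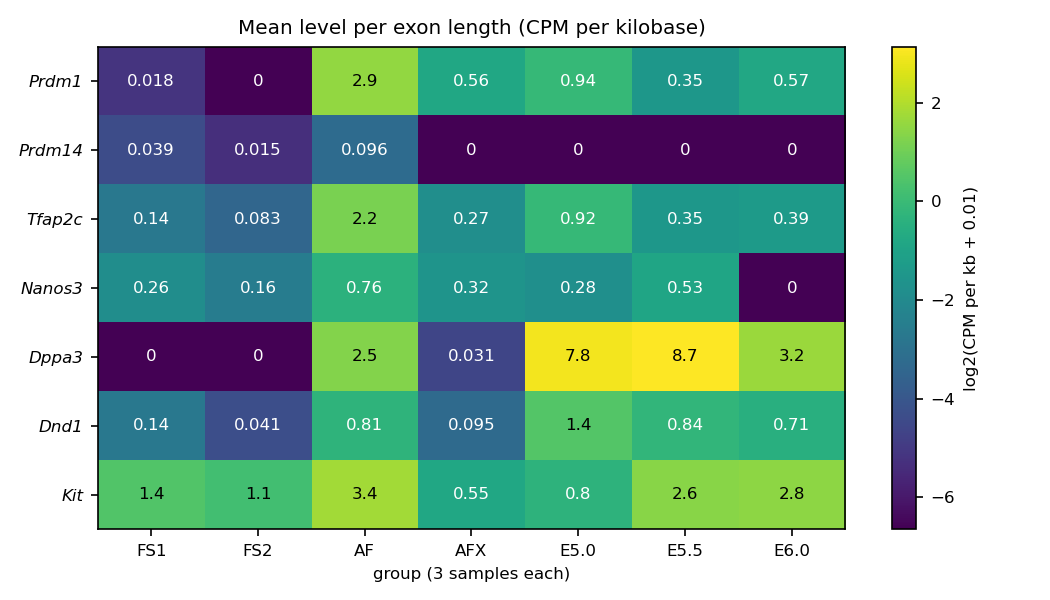
Mean level per exon length (CPM per kilobase, printed in each cell; colour on a log2 scale after adding 0.01) of the 7 genes (rows) in the 7 groups (columns, 3 samples each). Dppa3 is brightest in the embryos, with 8.74 at E5.5, and Kit is the brightest row in both FS lines.

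The genes with the most similar pattern were found by Pearson's r of log2 CPM over the 21 samples among 11102 genes, as a description in which the points share groups and depth. Nearest to Prdm1 were Amot (r = 0.90), Lefty2 (0.89) and Hmga2 (0.86), and nearest to Tfap2c was Prdm1 itself (0.86). Within the 9 epiblasts alone the first 3 values were 0.46, 0.54 and 0.58, and within the 12 culture samples 0.98, 0.91 and 0.93. Zfp42, a naive pluripotency marker also known as Rex1, was nearest to both Dppa3 (0.97) and Dnd1 (0.94). Among epiblasts only, these values for Zfp42 were 0.72 and 0.72. Kit was most like Ptprk (0.84), Idh2 (0.80) and Col11a1 (0.80).

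Signals that induce germ cells were described over a list of 18 BMP and WNT ligands, receptors, SMADs and targets. Of 17 tested, 7 were lower and 1 was higher in FS than in AF (10.6% and 8.86% of all genes), with a median log2 difference of -0.63 beside 0.02 over all genes. The ligand Bmp2 was at 0.645 ± 0.703 CPM in FS (SD, n = 6) and 35.2 ± 7.78 CPM in AF (SD, n = 3), a difference of -5.88 ± 0.64 (SE, edgeR adjusted p = 8.25e-05). Bmp4 was at 1.55 ± 0.289 and 6.96 ± 1.80 CPM (-2.17 ± 0.28, edgeR adjusted p = 0.000103), and Id1, a direct BMP target, was lower by -2.40 (edgeR adjusted p = 9.99e-05). The receptor Bmpr1b was the gene that was higher in FS (1.17 ± 0.36, edgeR adjusted p = 0.033). Against AFX, 3 of 17 were lower in FS and 0 higher (Bmp2, Id1 and Id2; median -0.20), where 4.92% of all genes were lower. In AFX against AF 3 of 17 were lower and 0 higher (Bmp4, Bmpr2 and Smad1; median -0.42), where 4.42% of all genes were lower. Between E6.0 and E5.0, 4 of 16 tested were higher and 0 lower (Acvr2b, Smad5, Smad4 and Id3; median 0.26 beside -0.02), where 10.2% of all genes were higher and 11.6% lower.

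A list of 19 partners and other genes of early germ cells moved in both directions between FS and AF and between E6.0 and E5.0. Of 18 tested, 4 were lower in FS than in AF (Kitl, Nanog, Ifitm1 and the chemokine receptor Cxcr4, which guides migrating germ cells) and 1, Sox2, was higher, with a median of -0.01, where 10.6% of all genes were lower and 8.86% higher. Cxcr4 was at 0.583 ± 0.549 CPM in FS and 11.2 ± 1.69 CPM in AF (-4.34 ± 0.87, edgeR adjusted p = 0.00426). Kitl was the 1 gene lower in FS than in AFX (4.92% of all genes), and Sox2 the 1 gene higher in AFX than in AF (4.30%), each of 18 tested and so near the background. Between E6.0 and E5.0, 3 of 16 were higher (Sall4, Lin28a and Nanog) and 5 were lower (Cbfa2t2, Ifitm3, Utf1, Tfap2a and Cd38), against 10.2% and 11.6% of all genes. Most calls of FS against the embryos were lower in FS. Of 18 tested, 10 were lower and 1 higher against E5.0, 9 and 2 against E5.5, and 8 and 1 against E6.0. The shares of all genes lower in FS were 24.8%, 20.8% and 18.9%.

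Later germ cell genes, 12 in all, followed another order than the specification genes. In AF their sum was 1.67 to 5.66 CPM, the lowest range beside FS1 at 2.85 to 7.54 CPM, and it was 13.8 to 23.1 CPM in FS2 and 30.3 to 70.4 CPM in AFX. Sycp3, of the meiotic chromosome axis, Rnf17 and Tex19.1 were higher in AFX than in AF, 3 of 5 tested, where 4.30% of all genes were higher. Rnf17 was at 18.1 ± 5.81 CPM in AFX and 0.745 ± 0.350 CPM in AF (4.59 ± 0.92, edgeR adjusted p = 0.00992). The embryos had 269 to 419 CPM at E5.0, 149 to 166 CPM at E5.5 and 65.7 to 80.9 CPM at E6.0. Of 11 tested, 7 were lower at E6.0 than at E5.0 and 0 were higher, where 11.6% of all genes were lower. Tex19.1, which acts in silencing of transposable elements, fell from 134 to 6.16 CPM (-4.45 ± 0.47, edgeR adjusted p = 0.000325).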

How the data were processed

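RNA sequencing of 12 culture samples and 9 single epiblasts was analysed from the deposited table of raw counts per gene, 1 column per sample. Per the submitters' processing notes the tools were Trim Galore, TopHat2 2.1.0 and featureCounts 1.5.0 and the build was mm10. The annotation release and the strand setting of the counting are not given in the sources used here. Groups were taken from the sample titles.

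Counts were fitted in R 4.3.3 with edgeR 4.0.16 (filterByExpr, TMM, robust quasi-likelihood fits, two-sided tests), adjusted by Benjamini-Hochberg over all genes tested. A gene was called at an adjusted p under 0.05. Cultures were compared in a fit of 12 samples, with FS1 and FS2 as 1 group, stages in a fit of 9, and cultures with epiblasts in a fit of 21. Bounds were taken against 3 counts per sample where every sample of a group had at most 3. A culture replicate is a passage, and an epiblast replicate is an embryo. Gene coordinates, exon lengths and overlaps come from GENCODE M21. Pattern likeness used a prior count of 2 and genes whose mean reached 5 CPM in some group. All 7 genes are named whatever their result. Genes of the pathway lists that passed the test were eligible to be named, and some are given by their count only. The genes and lists were chosen with earlier results of these data known, and which list genes are given with values was decided after their values were seen. The steps were tested on simulated data. Results were recomputed without the filter, with each sample left out, with a replicate block, with only the 2 groups compared, with FS1 or FS2 on its own or as a separate group, with size factors from DESeq2, and with the Wald test of DESeq2 1.42.0. The fit of all 21 samples for cultures and stages, and separate FS lines for AFX against AF, were added after seeing the data. Figures were drawn with matplotlib 3.10.9.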

Additional observations from a re-analysis of the deposited data

How the results depend on the processing

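Depth limits Prdm14 and Nanos3 throughout, and Dppa3 and Dnd1 in FS and AFX cells, where most samples had at most 3 counts. The number of the 7 genes called moved by more than 1.5 times as follows. The brackets give all genes called of those tested in the same fit. With no filter, where more genes were tested, it was 5 for FS against AF (3069 of 29996), 4 for AFX against AF (1330 of 29996) and 1 for E6.0 against E5.5 (1107 of 26648). In the fit of all 21 samples, which also tests Dppa3 and Dnd1, it was 5 for FS against AF (2614 of 16614) and 5 for AFX against AF (1121 of 16614). With the 2 groups alone it was 1 for FS against AFX (1433 of 15668) and 0 for E5.5 against E5.0 (453 of 13559). In the same setting it was 3 for FS against E5.5 (7277 of 15135) and 3 for FS against E6.0 (7601 of 15274). DESeq2's Wald test called 1 for E6.0 against E5.5 (1075 of 14228) and 2 for E6.0 against E5.0 (3664 of 14228). FS2 alone gave 5 for FS against AF (3431 of 15759) and 1 for FS against AFX (1930 of 15759), and FS1 alone gave 3 for FS against E5.5 (5784 of 16362). Leaving out 1 sample at a time, the count ranged from 3 to 5 for FS against AF, 1 to 2 for FS against AFX, 2 to 4 for AFX against AF, 0 to 1 for E5.5 against E5.0 and 1 to 2 for AF against E6.0. With the 2 groups alone, several genes called in the main fits failed the filter and were not tested. These were Prdm1 for FS against AFX, Tfap2c and Dnd1 against E5.5, and Tfap2c and Dppa3 against E6.0. Apart from this and the added tests, the cause of these moves was not tested.

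Differences that changed sign were all outside the threshold in the values reported. Leaving out 1 sample at a time gave log2 ranges of -0.0072 to 0.38 for Dppa3 between E5.5 and E5.0, -0.45 to 0.42 for Tfap2c, -0.56 to 0.017 for Dnd1 and -0.14 to 0.47 for Kit between E6.0 and E5.5, -0.064 to 0.54 for Dnd1 and -0.88 to 0.038 for Dppa3 between AF and E6.0, and -1.94 to 0.45 for Prdm1 and -1.19 to 0.12 for Tfap2c between AFX and E6.0. With DESeq2 size factors Prdm1 between AFX and E6.0 was at 0.0025. The cause was not tested. Of the values for single genes under the alternatives, 642 kept their direction and side of the threshold, 20 lost the call, 8 gained it and 16 changed sign.

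The passage numbers of AF and AFX and the embryo numbers do not pair the samples by the labels or by the correlation of their deviations. For AF and AFX these were -0.12, -0.09 and 0.20 for passages 14, 15 and 16, and 2 of 6 samples correlated best with their own number. For E5.5 and E6.0 they were 0.10, -0.05 and 0.08 for embryos 1, 2 and 3, and 3 of 6 did so. For embryos 1 and 2 they were -0.04 and 0.02 between E5.0 and E5.5, and 0.008 and -0.05 between E5.0 and E6.0. With a replicate block of passage number, 3 genes were called for AFX against AF, among them Prdm1 (-2.96, edgeR adjusted p = 0.0224). With a replicate block of embryo number, 0 were called for E5.5 against E5.0, with Kit at 1.62 (edgeR adjusted p = 0.0652) and Dppa3 at -0.012; 0 were called for E6.0 against E5.5, with Tfap2c at -0.0050, and 1, Kit, for E6.0 against E5.0.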
